A study of Mus musculus with 64 samples.

Results

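Mouse mammary tumors were compared in pairs, each pair being the tumors of a single mouse, so that host and genotype were shared within a pair. The series holds 8 tumors from 4 mice, and all 8 were used. The pairs were tumor 6 over tumor 8 of mouse G144, tumor 3 over tumor 6 of mouse G164, tumor 1 over tumor 6 of mouse G174 and tumor 6 over tumor 9 of mouse G184. The tumors were chosen by their labels alone, and no measured value entered the choice. G144 was Abi1 fl/wt and Cre-, G164 was fl/wt and Cre+, G174 was fl/fl and Cre+, and G184 was fl/fl and Cre-. All 4 mice were females with the PyMT transgene, the middle T antigen of polyomavirus driven in mammary epithelium, and each genotype was 1 mouse. Cre was driven by the MMTV promoter, from a line of mixed strain background, whereas the PyMT and floxed Abi1 alleles were on C57BL6. The study's records of age list G144 and G174 as younger than G164 and G184. The labels number the tumors but do not say from which gland each came. Total RNA was sequenced as stranded libraries after removal of ribosomal RNA, each tumor on 4 lanes in each of 2 runs, with 50346075 to 69264893 counts in genes per tumor after summing lanes and runs. A tumor is 1 sample, so no value of a tumor has a replicate, and the runs measure only the error of sequencing.

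A PyMT mouse carries tumors in several mammary glands. The mammary gland lies in the fat under the skin and close to the muscle of the body wall, and lymph nodes are embedded in some of the fat pads. The ducts have an inner luminal layer, whose cells can make milk, and an outer basal or myoepithelial layer, whose cells contract. A piece of tumor can therefore hold RNA of the tumor, of remaining ducts and of the tissues around them.

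The tumors of a mouse lay closer to each other than most tumors of different mice, and far outside the error of the runs. Values are CPM, counts scaled to library size with TMM factors, and log2 differences are taken on log2(CPM + 0.1), first tumor over second. Over the 15751 genes with a mean of at least 1 CPM in the 8 tumors, the median absolute log2 difference was 0.18 in G144, 0.13 in G164, 0.21 in G174 and 0.17 in G184. Between tumors of different mice it ran from 0.14 to 0.39, and between the runs of a tumor from 0.05 to 0.06. The nearest tumor was the other tumor of the same mouse for 5 of the 8 tumors. The exceptions were tumor 6 of G144 and tumor 6 of G174, which were nearest to each other at 0.18, and tumor 6 of G184, which was nearest to tumor 6 of G164 at 0.14.

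The tumors of G174 differed in the most genes. A gene was counted as apart when it was at least 2-fold different in the same direction in run 1 and in run 2, among genes with a mean of at least 1 CPM over the pair. In G174 748 of 15375 genes were apart (4.87%), of which 183 (1.19%) were higher and 565 (3.67%) lower in tumor 1. In G184 518 of 15623 genes were apart (3.32%), with 202 (1.29%) higher and 316 (2.02%) lower in tumor 6. In G164 373 of 15944 genes were apart (2.34%), with 190 (1.19%) higher and 183 (1.15%) lower in tumor 3. In G144 340 of 15424 genes were apart (2.2%), with 97 (0.629%) higher and 243 (1.58%) lower in tumor 6. At 8-fold, counted on the runs summed rather than in each run, the order was different. There the counts were 84 of 15375 genes in G174, 80 of 15944 in G164, 47 of 15424 in G144 and 23 of 15623 in G184. A gene near 0 in a tumor passed the 1 CPM minimum through its partner alone and then had to differ, so the counts and medians of the lists below describe the members that passed and support nothing by themselves. G164 had the lowest median difference and yet nearly as many genes at 8-fold as G174. Of 652 genes with a root mean square difference of at least 1 over the 4 mice, 307 had their largest difference in G174, 134 in G184, 106 in G164 and 105 in G144.

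**Figure D1:**
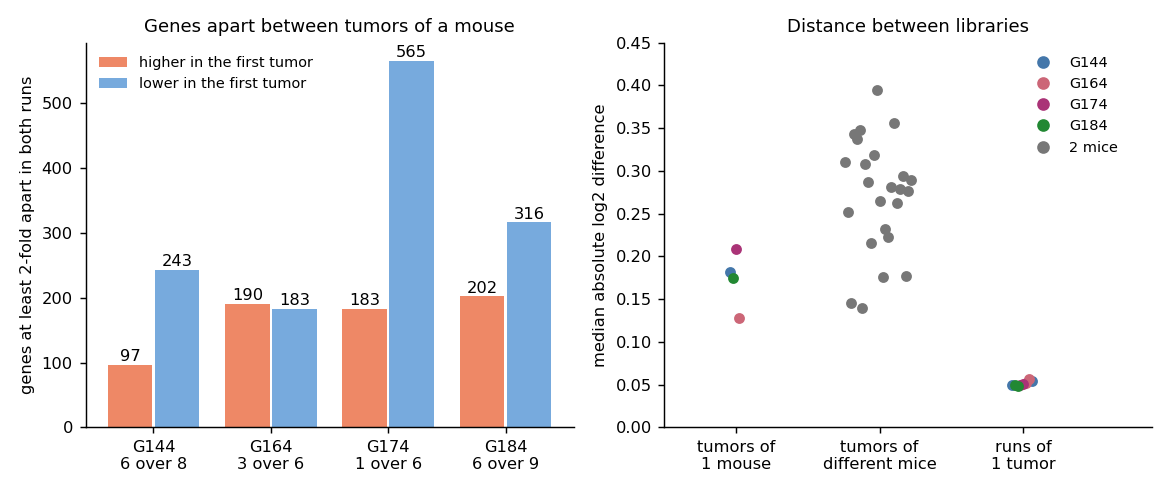
Left, number of genes at least 2-fold apart in both runs between the tumors of each mouse (y axis), higher (orange) or lower (blue) in the first tumor named under the bars. Right, median absolute log2 difference (y axis) over 15751 genes between tumors of 1 mouse, tumors of different mice and runs of 1 tumor, each point being a pair of libraries. The blue bar of G174, at 565 genes, is the tallest, and the points of the runs lie near 0.05.

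Against the spread between tumors in the other 3 mice, 1 gene passed the test. The quasi-likelihood test of edgeR, in which each mouse has its own mean and the difference inside a mouse is set against the pairs of the other 3, called 0 of 22187 genes in G144 (0%), 0 in G164 (0%), 1 in G174 (0.00451%) and 0 in G184 (0%) at an adjusted p of 0.05. At an unadjusted p of 0.05 the counts were 1114, 434, 2212 and 1204 of 22187 genes in G144, G164, G174 and G184. With no difference between the tumors, a fraction of 0.05 of the genes tested would pass this threshold. These counts are therefore not read as differences. DESeq2, with the same model, called 44 genes in G144, 24 in G164, 549 in G174 and 134 in G184. The gene called by edgeR was Gja1, on chromosome 10 of GRCm38 from 56377330 to 56402513, which encodes connexin 43, a protein of gap junctions found between myoepithelial cells. Gja1 was measured at 68.9 CPM in tumor 1 of G174 and at 503 CPM in tumor 6. The log2 difference was −2.87, against a root mean square difference of 0.14 in the other 3 mice (edgeR adjusted p = 0.0292). In the other mice it was at 205 and 182 CPM in tumors 6 and 8 of G144, 160 and 148 CPM in tumors 3 and 6 of G164, and 96.0 and 105 CPM in tumors 6 and 9 of G184. The 2 tumors of G174 thus held the lowest and the highest level of the series. Gja1 was called under every alternative except without G164 (adjusted p = 0.0611), and over the alternatives the adjusted p ran from 1.71e-56 with DESeq2 to 0.0611. None of the genes in the lists below passed edgeR in any mouse, so their differences are given as values, with no call.

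**Figure D2:**
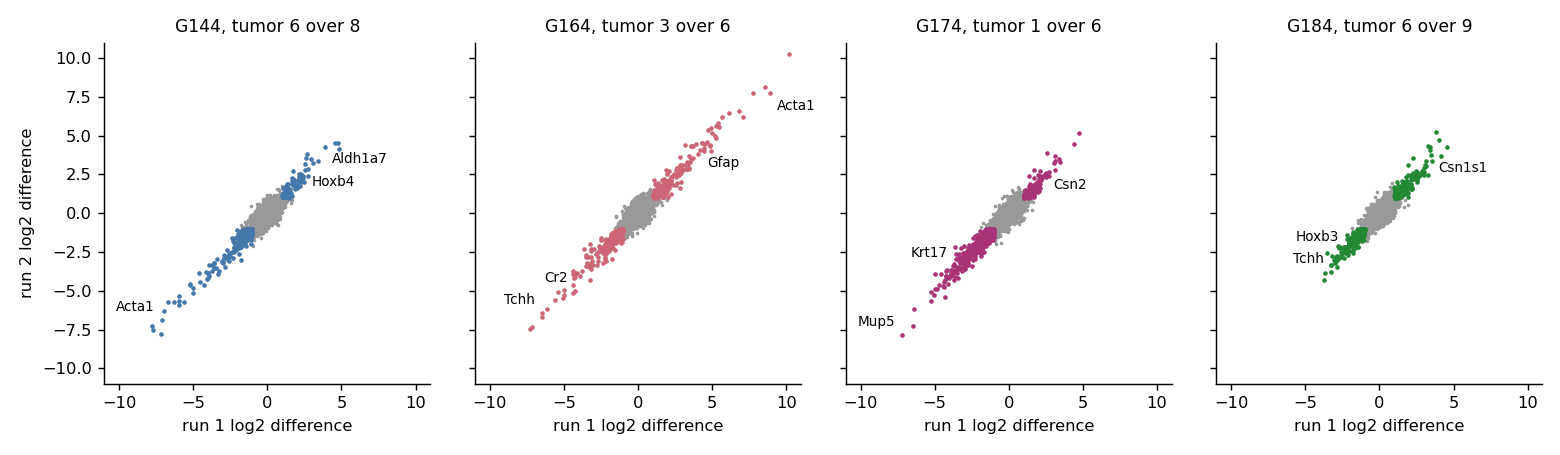
Log2 difference between the tumors of each mouse in run 1 (x axis) and in run 2 (y axis), 1 panel per mouse; each point is a gene with a mean of at least 1 CPM over the pair, and colored points were at least 2-fold apart in both runs. The colored points lie along the diagonal in every panel, and the median gap between the runs was 0.14 over 1979 colored points.

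Skeletal muscle genes stood far apart in G144 and in G164, on opposite sides of the pairs. Of 19 muscle genes measured in G144, 17 were apart and lower in tumor 6, against 1.58% of all genes, and 0 were higher, with a median log2 difference of −5.08. Of 21 measured in G164, 20 were apart and higher in tumor 3, against 1.19% of all genes, and 0 were lower, with a median of 5.07. Of the members at 1 CPM or more in both tumors, 2 of 4 in G144 and 2 of 3 in G164 were apart. All 21 members, low ones included, had a negative difference in G144 and a positive one in G164. The median of all genes was 0.01 in G144 and −0.01 in G164. Myh4, the myosin heavy chain of the fastest fibers, had the largest root mean square difference over the 4 mice of the genes named, at 6.39. It was at 0.229 CPM in tumor 6 and 65.3 CPM in tumor 8 of G144. In G164 it was at 119 CPM in tumor 3 (6242 counts) and had 0 counts in tumor 6, so that it was at least 2472-fold higher in tumor 3 against a floor of 3 counts in tumor 6. The 2 tumors of G174 had 0.0305 and 0.136 CPM of Myh4, and those of G184 0.226 and 0.202 CPM. Tumor 8 of G144 and tumor 3 of G164 were thus the high ones, and the other 6 tumors lay below 0.3 CPM.

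Other parts of the contractile apparatus followed the same tumors. Acta1, skeletal muscle alpha-actin, was at 0.503 and 75.8 CPM in tumors 6 and 8 of G144, and at 73.6 and 0.144 CPM in tumors 3 and 6 of G164. Ckm, the creatine kinase of muscle, was at 0.442 and 26.7 CPM in G144 and at 29.9 and 0.289 CPM in G164, and in G174 and G184 no tumor exceeded 0.296 CPM. Ttn, the giant spring protein titin, was measured in every tumor. It was at 17.4 and 307 CPM in tumors 6 and 8 of G144, at 524 and 23.1 CPM in tumors 3 and 6 of G164, at 17.8 CPM in both tumors of G174 and at 24.1 and 14.6 CPM in tumors 6 and 9 of G184. Mb, myoglobin, was at 8.70 to 13.0 CPM in all 8 tumors and did not follow the list. Summed over the list, the log2 difference was −4.30 in G144, 4.64 in G164, −0.05 in G174 and 0.50 in G184. In bulk tissue, fewer cells of a type and less RNA per cell cannot be told apart. For these genes the spread in the other mice was large in every comparison, since both G144 and G164 held it: for Acta1 the log2 difference was 8.24 in G164 against 4.08 in the other 3 mice, and the edgeR adjusted p was 1.

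**Figure D3:**
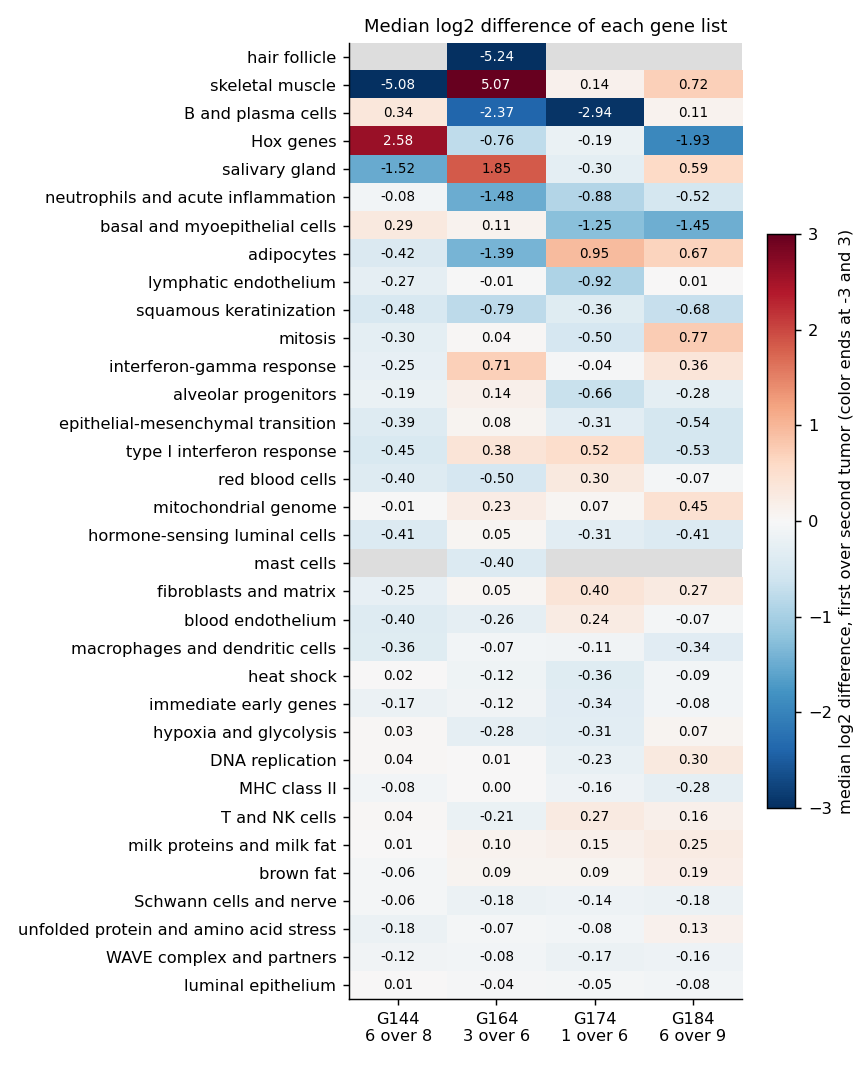
Median log2 difference, first over second tumor, of the members of each gene list with a mean of at least 1 CPM over the pair, by mouse; red is higher and blue lower in the first tumor, and gray marks lists with fewer than 3 such members. The skeletal muscle row holds −5.08 in G144 and 5.07 in G164, and values near 0 fill the rows at the bottom, among them luminal epithelium at −0.08 to 0.01.

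In G164 genes of the hair follicle stood on the side of tumor 6. All 12 members found had a negative difference. Of them 7 had a pair mean of at least 1 CPM, with a median log2 difference of −5.24, and 7 were apart, against 1.15% of all genes, but only Tchh was at 1 CPM or more in both tumors. Tchh, trichohyalin, a protein of the inner root sheath of the hair, was at 2.38 CPM in tumor 3 and 217 CPM in tumor 6. Krt73, a keratin of the same sheath, had 5 counts in tumor 3 and 1846 in tumor 6, a ratio of 311 (95% exact interval 133 to 958, counting error only). Krt25 and Krt27, sheath keratins encoded on chromosome 11, were at 0.0572 and 0.172 CPM in tumor 3 and at 15.1 and 10.2 CPM in tumor 6. A trace of the same genes appeared in G184, where Tchh was at 1.62 CPM in tumor 6 and 19.5 CPM in tumor 9, and Krt73 at 0 and 1.58 CPM. The 4 tumors of G144 and G174 had 0.564 to 1.58 CPM of Tchh. Tumor 6 of G164 and tumor 9 of G184 were thus the high ones of their pairs.

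The genes of keratinizing epidermis did not move as a block in G164. Of 18 measured, 4 were apart and higher (1.19% of all genes) and 5 were apart and lower (1.15%) in tumor 3. Krt1 and Krt10, the keratin pair of the suprabasal layers of skin, were at 67.3 and 66.6 CPM in tumor 3 and at 22.2 and 17.5 CPM in tumor 6. Lor, loricrin, a protein of the cornified envelope, was at 3.51 CPM in tumor 3 and 0.465 CPM in tumor 6, and Flg, filaggrin, at 23.1 and 9.11 CPM. Krt16, a keratin of hair sheaths and stressed epidermis, stood the other way, at 1.26 CPM in tumor 3 and 25.9 CPM in tumor 6. So did Klk7, a protease that sheds the horny layer, at 2.08 and 23.1 CPM, and Krt6a at 4.73 and 20.5 CPM. In the tumors of G144 and G174 Krt1 was at or below 1.54 CPM, and in G184 it was at 0.155 and 1.07 CPM.

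Genes of B cells were higher in tumor 6 of G164, whereas the immunoglobulin genes were not. Of 12 measured, 8 were apart and lower in tumor 3, against 1.15% of all genes, and 0 were higher. Of the 6 at 1 CPM or more in both tumors, 2 were apart. Ms4a1, which encodes CD20, was at 0.877 CPM in tumor 3 and 9.59 CPM in tumor 6, and Cr2, the complement receptor of B cells and follicular dendritic cells, at 0.514 and 14.3 CPM. Ighm, the heavy chain of IgM, was at 278 CPM in tumor 3 and 159 CPM in tumor 6, and Igkc, the kappa light chain, at 121.7 and 71.99 CPM. Jchain, which joins secreted antibodies in plasma cells, was at 43.3 and 24.6 CPM. Surface genes of B cells and antibody genes thus stood on opposite sides of the pair. In tumors 1 and 6 of G174 Igkc was at 0.457 and 4.86 CPM and Jchain at 0.198 and 2.23 CPM, while Ms4a1 was at 0.0609 and 0.0452 CPM. The genes of T and NK cells were near to equal, with a median log2 difference of −0.21 over 17 genes and 0 of them apart. Glycam1, on the list of milk proteins but also a ligand of L-selectin made by the high endothelial venules of lymph nodes, was at 1.56 CPM in tumor 3 and 26.1 CPM in tumor 6. H2-DMb2 and H2-Oa, genes of antigen loading in B cells, were the 2 of 8 MHC class II genes that were apart, against 1.15% of all genes. They were at 1.64 and 0.972 CPM in tumor 3 and at 5.76 and 2.49 CPM in tumor 6. Of the 7 MHC class II genes at 1 CPM or more in both tumors, 1 was apart. The parts of B cells, lymph node and skin in these values were not tested.

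**Figure D4:**
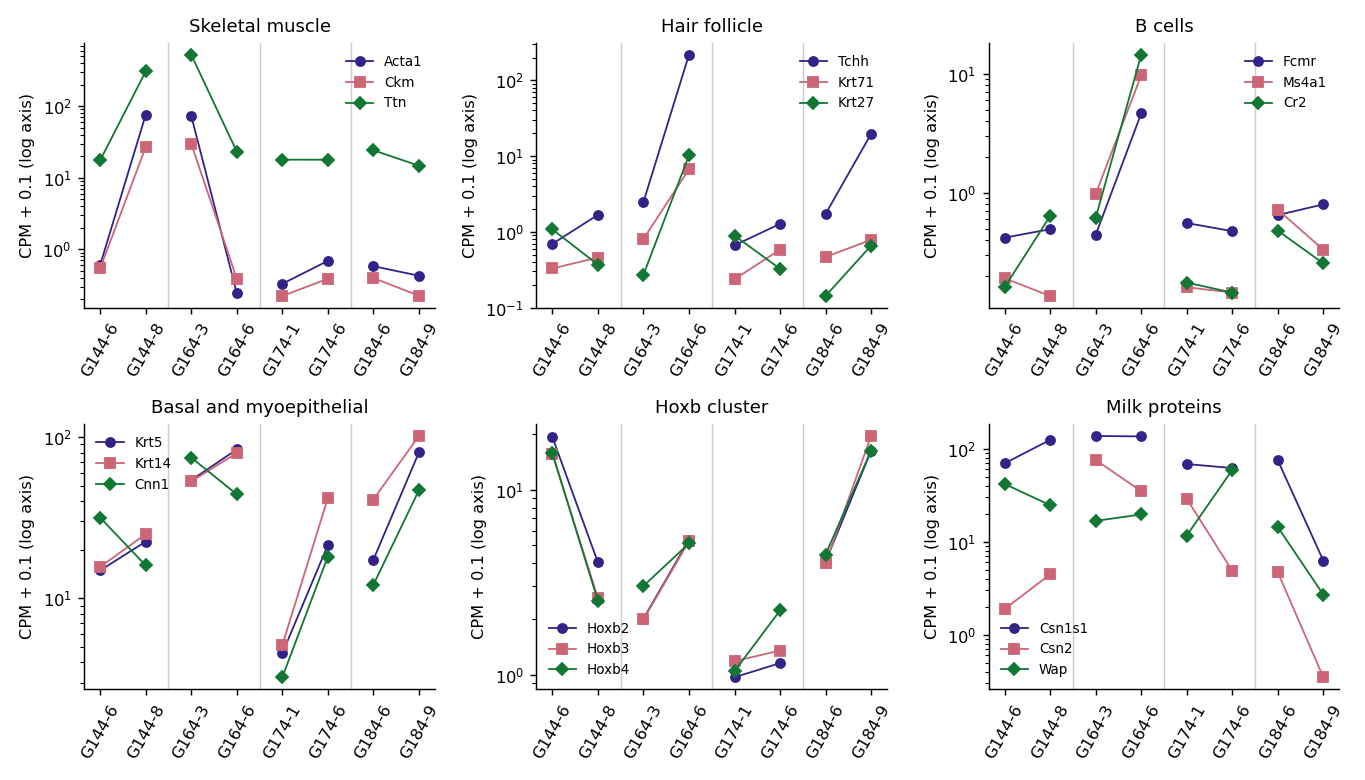
CPM + 0.1 on a log axis of 3 genes from each of 6 lists, in each tumor named mouse-tumor on the x axis; lines join the tumors of a mouse and points are single tumors. Muscle genes are high in G144-8 and G164-3, hair follicle and B cell genes in G164-6, and the Hoxb genes in G144-6 and G184-9.

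Adipocyte and neutrophil genes were also higher in tumor 6 of G164. Of 14 adipocyte genes, 10 were apart and lower in tumor 3, against 1.15% of all genes, with a median log2 difference of −1.39. Cfd, the fat cell protease adipsin, was at 19.4 CPM in tumor 3 and 82.9 CPM in tumor 6, and Adipoq, the hormone adiponectin, at 4.10 and 12.8 CPM. Of 13 genes of neutrophils and acute inflammation, 7 were apart and lower (1.15% of all genes) and 1 was apart and higher (1.19%) in tumor 3, and 3 of the 7 at 1 CPM or more in both tumors were apart. S100a8, a calcium-binding protein abundant in neutrophils and also made by keratinocytes, was at 9.05 CPM in tumor 3 and 40.5 CPM in tumor 6. Ngp, of neutrophil granules, had 6 and 296 counts, a ratio of 41.5 (95% exact interval 18.8 to 114). Genes of the interferon-gamma response had the other sign, with a median of 0.71 over 13 genes, and Tgtp1, a GTPase of that response with near copies in the genome, was at 15.9 CPM in tumor 3 and 5.77 CPM in tumor 6.

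Secreted proteins of glands stood on the side of tumor 3 of G164. Of 11 measured members of a salivary gland list, 9 were apart and higher in tumor 3, against 1.19% of all genes, and of 6 at 1 CPM or more in both tumors 4 were apart, with a median log2 difference of 1.85. Dcpp1 and Dcpp2, overlapping genes of small secreted proteins on chromosome 17, were at 10.8 and 18.5 CPM in tumor 3 and at 0.930 and 2.02 CPM in tumor 6. The genes were also apart in 2 other mice. In tumors 6 and 8 of G144 Dcpp2 was at 1.96 and 11.9 CPM, and in tumors 1 and 6 of G174 at 1.49 and 17.4 CPM. In G184 it was at 0.409 and 0.342 CPM. Dcpp1, Dcpp2 and Dcpp3 resemble each other in sequence, reads that fit several places were not counted, and the share of each gene is uncertain. Other genes, outside the list, were high in the same tumors of G164 and G174. Gfap, the filament protein of astrocytes, was at 21.9 and 1.16 CPM in tumors 3 and 6 of G164 and at 1.25 and 41.3 CPM in tumors 1 and 6 of G174. Apobec2, a deaminase relative known from muscle, was at 20.8 and 1.20 CPM in G164 and at 0.0457 and 15.9 CPM in G174. Amtn, a protein of enamel, was at 287 and 24.9 CPM in G164 and at 1.39 and 20.2 CPM in G174. Slc47a1, an exporter of organic cations, was at 57.7 and 5.92 CPM in G164 and at 3.38 and 48.4 CPM in G174. In G184 their log2 differences were 0.19 to 1.89, and in G144 −1.67 to 1.96.

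In G144, apart from muscle, the Hoxb genes and a pair of aldehyde dehydrogenases stood out. Hox genes encode transcription factors that are expressed by position along the body axis. Of 5 measured in G144, 4 were apart and higher in tumor 6, against 0.629% of all genes, and 0 were lower. Hoxb2, Hoxb3 and Hoxb4 lie next to each other on chromosome 11 of GRCm38, from 96318267 (the start of Hoxb4) to 96354012 (the end of Hoxb2). They were at 19.1, 15.4 and 15.7 CPM in tumor 6 and at 3.94, 2.49 and 2.40 CPM in tumor 8. In G184 the same genes were at 3.98, 3.91 and 4.36 CPM in tumor 6 and at 16.1, 19.4 and 16.2 CPM in tumor 9. In G164 they were at 1.91, 1.89 and 2.92 CPM in tumor 3 and at 5.26, 5.16 and 5.02 CPM in tumor 6, and in G174 all 6 values lay between 0.868 and 2.12 CPM. Tumor 6 of G144 and tumor 9 of G184 were thus alike in these genes. Hoxb5, the next gene of the cluster, was at 2.80 and 0.233 CPM in G144 and at 0.183 and 1.09 CPM in G184. Hoxc8 and Hoxd8, of other clusters, were at or below 2.04 CPM in every tumor, and their log2 differences ran from −1.004 to 0.65. The level of Hoxb2 depends on strand, since an antisense gene covers it. The 8 tumors held 3349 counts on its own strand and 599 in the unstranded count, which drops reads of overlapping genes. The level of Hoxb3 also depends on strand, with 3251 counts on its own strand and 1264 unstranded ones.

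Aldh1a1 and Aldh1a7, related aldehyde dehydrogenases on chromosome 19 of which Aldh1a1 is a common marker of stem-like cells, were both higher in tumor 6 of G144. Aldh1a1 was at 47.5 CPM in tumor 6 and 5.25 CPM in tumor 8, and Aldh1a7 at 17.58 and 0.9502 CPM. Both were lower in tumor 1 of G174 than in its tumor 6, at 0.884 and 4.37 CPM for Aldh1a1 and at 0.518 and 2.50 CPM for Aldh1a7. Krt79, a keratin of hair follicle openings and sebaceous ducts, was at 55.1 CPM in tumor 6 and 10.3 CPM in tumor 8. Lalba, which encodes the milk protein alpha-lactalbumin, was lower in tumor 6 of G144, at 63.3 CPM against 243 CPM in tumor 8. The other lists with at least 3 measured genes had medians between −0.48 and 0.34 in G144, except the salivary gland list at −1.52.

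In both fl/fl mice the basal and myoepithelial genes differed between the tumors. Of 14 measured in G174, 8 were apart and lower in tumor 1, against 3.67% of all genes, with a median log2 difference of −1.25. Of 13 measured in G184, 11 were apart and lower in tumor 6, against 2.02% of all genes, with a median of −1.45. In G144 and G164 the medians were 0.29 and 0.11. Krt14, a keratin of basal cells, was at 5.01 and 41.7 CPM in tumors 1 and 6 of G174 and at 40.9 and 101.4 CPM in tumors 6 and 9 of G184. Krt5, its partner keratin, was at 4.45 and 21.3 CPM in G174 and at 17.2 and 80.1 CPM in G184. Cnn1, calponin, of the contractile apparatus of myoepithelium, was at 3.14 and 18.0 CPM in G174 and at 12.02 and 46.6 CPM in G184. Krt17, a keratin of basal cells and of hair, was apart in G174, at 8.49 and 98.7 CPM in tumors 1 and 6 (log2 difference −3.52, root mean square 0.47 in the other 3 mice, edgeR adjusted p = 0.0754). Lgr6 and Oxtr did not follow the list in G174, at 224 and 45.3 CPM in tumor 1 and at 153 and 29.5 CPM in tumor 6. Whether the difference between the fl/fl and fl/wt mice in this list is one of genotype cannot be told apart from the mouse.

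In G174 the genes lower in tumor 1 ran beyond the basal layer. Cdh2, N-cadherin, was at 1.61 and 12.4 CPM in tumors 1 and 6, and Aldh1a3, an aldehyde dehydrogenase of alveolar progenitors, at 5.47 and 86.5 CPM. Mup5, a major urinary protein of a large family with near copies, was at 0.122 and 38.9 CPM, and its level is uncertain for that reason. Fam83a, a scaffold in signaling of the EGF receptor, was at 0.975 and 25.3 CPM, and Mmp9, a gelatinase, at 1.81 and 11.4 CPM. The direction was not particular to G174. In tumors 6 and 9 of G184 Cdh2 was at 7.35 and 19.35 CPM and Aldh1a3 at 30.6 and 97.6 CPM. In tumors 6 and 8 of G144 Fam83a was at 4.27 and 20.6 CPM and Mup5 at 0.777 and 10.1 CPM, and in tumors 3 and 6 of G164 Mmp9 was at 1.105 and 3.26 CPM. In the remaining pairs the log2 differences of these genes ran from −0.69 to 1.84. Of 20 genes of hypoxia and glycolysis, 4 were apart and lower in tumor 1, against 3.67% of all genes, and 0 were higher. Adm, adrenomedullin, was at 2.67 and 12.1 CPM, Ndrg1 at 72.4 and 260 CPM (log2 difference −1.84, root mean square 0.17 in the other mice, edgeR adjusted p = 0.0753), and Vegfa, a growth factor of vessels, at 66.7 and 143.5 CPM. Ldha, lactate dehydrogenase, on the same list, was at 684 and 762 CPM.

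Some collagen and adipocyte genes were measured higher in tumor 1 of G174. Col1a1, a chain of fibrillar collagen, was at 528 CPM in tumor 1 and 196 CPM in tumor 6 (log2 difference 1.43, root mean square 0.24 in the other mice, edgeR adjusted p = 0.114), and Col3a1 at 820 and 448 CPM. Over 20 genes of fibroblasts and matrix, 1 was apart and higher, against 1.19% of all genes, the median was 0.40, and Sparc was at 310 and 376 CPM. Lgr5, a receptor of R-spondins, was at 13.1 and 2.68 CPM, and Col27a1 at 30.8 and 3.90 CPM. Mtus2, a microtubule-associated gene, had the largest difference in this direction among coding genes with a mean of at least 5 CPM over the pair, at 13.2 and 0.346 CPM. Cfd was at 9.08 and 2.29 CPM, and the adipocyte list had a median of 0.95 over 7 genes. Mx1, an interferon-induced GTPase, was at 77.8 and 25.1 CPM, and the type I interferon list had a median of 0.52 over 16 genes, of which 1 was apart.

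Milk genes divided within the pairs. In G174 4 of 15 were apart and higher (1.19% of all genes) and 5 apart and lower (3.67%) in tumor 1. Csn2, beta-casein, was at 28.8 and 4.76 CPM in tumors 1 and 6 and Csn1s2a at 22.1 and 4.11 CPM, whereas Wap, whey acidic protein, was at 11.5 and 58.8 CPM and Mfge8, of milk fat globules, at 704 and 1592 CPM. In G184 4 of 15 were apart and higher (1.29% of all genes) and 1 was apart and lower (2.02%) in tumor 6. Csn1s1, alpha-casein, was at 74.8 and 6.15 CPM in tumors 6 and 9 of G184, Csn2 at 4.58 and 0.249 CPM, and Wap at 14.2 and 2.60 CPM. Ltf, lactoferrin, stood the other way, at 628 and 1524 CPM. The caseins lie together on chromosome 5 and did not move together in every mouse: in G164 Csn1s1 was at 136 and 135 CPM in tumors 3 and 6 while Csn2 was at 75.4 and 34.7 CPM. Csn3, kappa-casein and the most abundant casein, was between 2244 and 5646 CPM in all tumors, and its log2 differences ran from −0.61 in G174 to 0.46 in G184.

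In G184 genes of mitosis were higher in tumor 6. All 20 measured genes had a positive log2 difference, between 0.48 and 1.16, with a median of 0.77, while 1 was 2-fold apart in both runs. That gene was Mki67, a marker of dividing cells, at 346 CPM in tumor 6 and 154 CPM in tumor 9. In the other mice the median was −0.30 in G144, 0.04 in G164 and −0.50 in G174. A shared sign was not particular to G184, since all 20 had a negative difference in G174. Of the 20, 18 were negative in G144 and 9 in G164. Genes of DNA replication had a median of 0.30 in G184 and of −0.23 in G174, where all 20 were negative. Atp2a3, a calcium pump of epithelial cells, was at 492 and 58.8 CPM in tumors 6 and 9, and Dmbt1, a secreted scavenger protein, at 33.8 and 2.97 CPM. Genes lower in tumor 6 included Reln, reelin, at 7.53 and 50.4 CPM, and Fmod, fibromodulin, a small proteoglycan of matrix, at 20.5 and 122 CPM. Of 20 fibroblast genes, 15 had a positive and 5 a negative difference in this mouse, with a median of 0.27. Apart and higher in tumor 6 were 3, against 1.29% of all genes, and 0 were apart and lower. Dpt, dermatopontin, was at 14.0 and 4.09 CPM, whereas Sparc was at 433 and 854 CPM.

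Genes of T cells, MHC class II and interferon differed little inside mice relative to the differences between mice. The share of a gene's squared deviations that lay between tumors of a mouse had a median of 29.8% over 15751 genes, where 57.1% of the degrees of freedom lie inside mice. It was 67.7% for 19 skeletal muscle genes and 57.2% for 5 hair follicle genes, and 39.1% for 14 basal genes. It was 1.25% for 7 MHC class II genes, 2.72% for 15 T and NK cell genes, 2.88% for 13 interferon-gamma genes and 8.44% for 16 type I interferon genes. A low share was not particular to these lists. It was 8.14% for 20 DNA replication genes, 12.6% for 7 genes of lymphatic endothelium and 12.9% for 16 genes of squamous keratinization. Cd74, the invariant chain of MHC class II, was at 226 and 225 CPM in tumors 6 and 8 of G144, 569 and 579 CPM in tumors 3 and 6 of G164, 183 and 204 CPM in tumors 1 and 6 of G174 and 659 and 824 CPM in tumors 6 and 9 of G184. Gbp2, a GTPase induced by interferon-gamma, was at 44.7 and 53.8 CPM in G144, 111 and 77.9 CPM in G164, 58.5 and 60.1 CPM in G174 and 963 and 682 CPM in G184. Cd3e, of the T cell receptor complex, had 0.853 and 0.860 CPM in G144, 2.65 and 3.08 CPM in G164, 0.564 and 0.422 CPM in G174 and 2.98 and 2.60 CPM in G184. In all 3 genes the tumors of G144 and G174 lay below those of G164 and G184, and for Gbp2 those of G164 lay far below those of G184. G144 and G174 were also the younger mice, and each genotype was 1 mouse. Age, genotype and mouse cannot be told apart here, and these are descriptions of the mice.

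**Figure D5:**
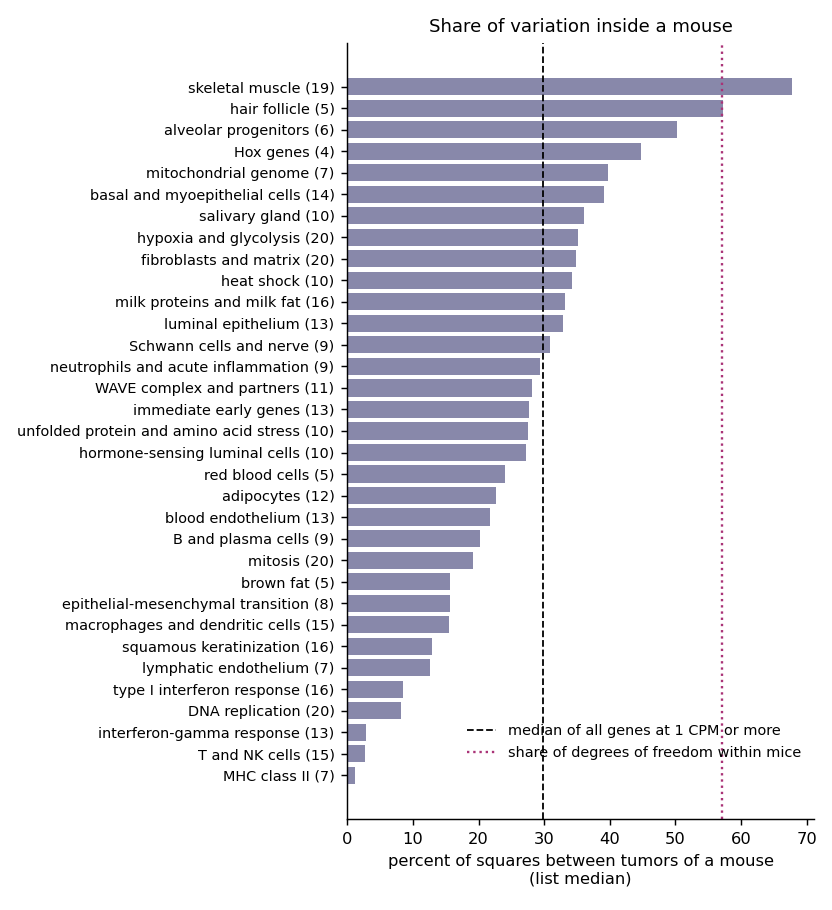
Share of the squared deviations of log2(CPM + 0.1) that lay between tumors of a mouse (x axis, percent), as the median over the members of each list with a mean of at least 1 CPM (number in brackets); dashed line, median of all 15751 genes; dotted line, share of degrees of freedom inside mice. Skeletal muscle is at 67.7% and MHC class II at 1.25%, on either side of the dashed line at 29.8%.

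As a list, Abi1 and the other genes of the WAVE complex had a median share inside mice of 28.1% over 11 genes, near the 29.8% of all genes. Abi1 itself differed far more between mice than inside them. Abi1, the floxed gene, was at 111 and 130 CPM in tumors 6 and 8 of G144, 63.1 and 66.7 CPM in tumors 3 and 6 of G164, 8.93 and 6.47 CPM in tumors 1 and 6 of G174 and 114 and 122 CPM in tumors 6 and 9 of G184. Its largest difference was 0.46 on the log2 scale, in G174 (root mean square 0.15 in the other mice, edgeR adjusted p = 0.41). Of 11 WAVE genes measured, 0 were apart in G144 (2.2% of all genes) and in G164 (2.34%), as were 0 of 10 in G184 (3.32%), counts near the share of all genes. In G174 1 was apart (4.87% of all genes), Wasf3, which encodes WAVE3, at 0.823 CPM in tumor 1 and 2.51 CPM in tumor 6. Of 13 luminal epithelial genes 1 was apart in G174 and 0 in each other mouse, also near the shares of all genes, and their median share of squares inside mice was 32.8%.

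Most genes that were apart were apart in a single mouse, which the low share of each mouse would give by itself. Over all measured genes, 2.2% were apart in G144, 2.34% in G164, 4.87% in G174 and 3.32% in G184. Of the genes apart in any mouse, 1158 were apart in 1 mouse, 318 in 2, 55 in 3 and 5 in all 4. The 5 were Bpifb5, Lao1, Csn2, Pip and Slc47a1, of which Bpifb5, Lao1, Csn2 and Pip encode secreted proteins. Pip, prolactin-induced protein, was at 1.37 and 12.2 CPM in G144, 13.9 and 5.29 CPM in G164, 0.990 and 10.3 CPM in G174 and 3.54 and 8.61 CPM in G184. Bpifb5, of a family of secreted lipid-binding proteins, was at 123 and 25.3 CPM in G144, 14.9 and 6.51 CPM in G164, 83.3 and 254 CPM in G174 and 3.03 and 1.03 CPM in G184. G174 and G184 shared 93 genes lower in the first tumor, which were 16.5% of the 565 of G174 and 29.4% of the 316 of G184. G144 and G164 shared 43 genes lower in tumor 6 of G144 and higher in tumor 3 of G164, which were 17.7% of 243 and 22.6% of 190. G144 and G174 shared 60 genes lower in the first tumor (24.7% of 243 and 10.6% of 565). Another 45 genes were higher in tumor 3 of G164 and lower in tumor 1 of G174 (23.7% of 190 and 7.96% of 565). Over all genes, 1.58% were lower in tumor 6 of G144 and 1.19% higher in tumor 3 of G164. Those lower in tumor 1 of G174 were 3.67%, and those lower in tumor 6 of G184 were 2.02%. The percentages of the overlaps just given all lay above these shares, but this was not particular to them, and they were the largest overlaps. The other 20 pairings of mice and directions shared 3 to 35 genes. The 35 were lower in tumor 1 of G174 and higher in tumor 6 of G184 (6.19% of 565 and 17.3% of 202), where 1.29% of all genes were higher in tumor 6 of G184. The 3 were higher in tumor 1 of G174 and lower in tumor 6 of G184 (1.64% of 183 and 0.949% of 316). Only there did the percentages lie below the shares.

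Measures of the libraries also differed inside mice. Unmapped reads were 4.76% and 6.08% of all reads in tumors 6 and 8 of G144, 4.49% and 5.55% in tumors 3 and 6 of G164, 6.45% and 4.93% in tumors 1 and 6 of G174 and 4.25% and 5.36% in tumors 6 and 9 of G184. Reads on no annotated exon of the counted strand were 32.3% in tumor 1 of G174 and 29.8% in its tumor 6. They differed by less than 3 percentage points in every pair. Genes annotated as nuclear ribosomal RNA, of which a remainder can escape removal, summed to 771 and 452 CPM in G144, 296 and 582 CPM in G164, 817 and 614 CPM in G174 and 200 and 995 CPM in G184. Tumor 9 of G184 had the highest sum and its partner the lowest. The part of these measures in the gene differences was not tested.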

How the data were processed

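The authors called bases with bcl2fastq, aligned reads to GRCm38/mm10 with STAR and deposited raw counts per gene from STAR, unstranded and for each strand, for 8 tumors in 2 runs of 4 lanes, whose versions the sources used here do not give. Counts of the reverse strand were summed per tumor, since the forward strand held 4.76% to 6.80% of stranded counts. Reads on no annotated exon of the counted strand (28.3% to 34.9%), which include reads of introns and of the other strand, stayed out. So did reads mapping to several places (10.5% to 14.2%). Of 55385 genes, 22187 passed filterByExpr of edgeR 4.0.16 (R 4.3.3). Counts were scaled by TMM and tested by the quasi-likelihood F test, with 1 mean per mouse and the first over the second tumor of 1 mouse as the coefficient (3 residual degrees of freedom), adjusted by Benjamini-Hochberg. The test assumes that the tumors of a mouse vary as in the other 3. It was run on simulated data in which all tumors had the same spread per gene, so that assumption was not checked. DESeq2 1.42.0 was an alternative. Errors given are root mean square differences of the other mice.

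The minimum of 1 CPM in both tumors, given for some lists, was chosen after seeing the data. The values of 1 list member are not reported here. Names and positions are from GENCODE M21 on GRCm38. Members and 34 lists (489 entries, of which 488 were found) were chosen with earlier results of these data known. Named were, per mouse, the 10 protein-coding genes highest and the 10 lowest in the first tumor (mean of at least 5 CPM, 2-fold in both runs), the 20 with the largest root mean square difference, genes called, up to 4 members of each list plus the most abundant, and WAVE genes. Outside that rule, chosen after their values were seen, are Adipoq, Cd3e, Csn3, Flg, Gbp2, Hoxc8, Hoxd8, Igkc, Jchain, Krt1, Krt10, Krt5, Krt6a, Lalba, Lao1, Ldha, Lgr6, Ltf, Mb, Mfge8, Oxtr, Sparc, Vegfa and the noncoding genes. A deposited table of counts summed by the authors per mouse served only for gene names, and its sums equaled the unstranded sums in 55381 of its 55381 genes.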

Additional observations from a re-analysis of the deposited data

How the results depend on the processing

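No paired analysis was possible because each comparison is itself made inside a mouse, and the numbers in the labels name tumors, not pairs across mice. The counts called by edgeR depended on the filter and the tool. With no filter on low counts they were 8 in G164, 1394 in G174 and 35 in G184, and with DESeq2 44 in G144, 24 in G164, 549 in G174 and 134 in G184. Run 1 alone gave 3 in G174. Leaving out 1 of the other mice gave 0 to 9 in G174 (9 without G144, 0 without G164, 2 without G184), 0 to 1 in G184 (1 without G174) and 0 in G144 and G164. With a mean of at least 5 CPM, the genes 2-fold apart in both runs were 167 in G144, 150 in G164, 419 in G174 and 293 in G184. The other settings kept these counts within 1.5 times, and the share inside mice was 29.2% to 30.5%. Of 5262 values of named genes and lists under 6 settings, 192 moved beyond the gap between runs and 0 reversed, 126 of the 192 with 0.5 CPM added and 54 with unstranded counts. Tumors of 1 sample each limit every gene difference, and low genes are also limited by counting error, which the printed intervals cover alone.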

Other observations

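Genes other than those of the lists also stood apart inside mice. A group of genes that includes RNA annotated as ribosomal moved together, chosen after the values were seen. Lars2, which encodes the mitochondrial leucyl-tRNA synthetase, was at 345 and 1388 CPM in tumors 6 and 8 of G144, 70.7 and 604 CPM in tumors 3 and 6 of G164, 692 and 622 CPM in tumors 1 and 6 of G174 and 56.2 and 474 CPM in tumors 6 and 9 of G184. Gm42418 had 1378 and 5166 CPM in G144, 716 and 2293 CPM in G164, 1825 and 1475 CPM in G174 and 486 and 1439 CPM in G184. Gm15564, Mir6236 and Gm24601 had the same signs in all 4 mice, with log2 differences of −0.78 to −3.33 in G144, G164 and G184 and of 0.34 to 0.48 in G174. The 5.8S gene n-R5-8s1 did not follow them in G144, at 669 and 316 CPM.

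Among noncoding and imprinted genes, H19 was at 8.14 and 34.0 CPM in G144, 24.2 and 9.74 CPM in G164, 21.3 and 25.0 CPM in G174 and 7.77 and 2.98 CPM in G184. Pinc, a noncoding RNA of the mammary epithelium, was at 12.3 and 46.1 CPM in tumors 1 and 6 of G174 and at 36.2 and 166 CPM in tumors 6 and 9 of G184, on the side of the basal genes in both mice. Gm10800, annotated as protein-coding, was at 17.8 and 1.10 CPM in G184 and 10.6 and 1.81 CPM in G164. Its 8 tumors held 4138 counts on its own strand and 10742 unstranded ones, so its level depends on the strand counted.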
